A study of Mus musculus with 6 samples.

Results

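The nuclear genes for the subunits of the respiratory chain and of ATP synthase were examined in jejunal crypt epithelium, the cells that line the pits of the middle small intestine. They were picked by symbol alone: Ndufa, Ndufb, Ndufc, Ndufs and Ndufv genes with a number for complex I, Sdha to Sdhd for complex II, Uqcr genes for complex III, Cox4 to Cox8 genes for complex IV and Atp5 genes for complex V. Of 18193 genes with a symbol of their own on the array, 81 matched, through 164 probe sets. They were 35 genes of complex I, 4 of complex II, 8 of complex III, 17 of complex IV and 17 of complex V. Where a gene had several probe sets, the one with the highest mean over all 6 arrays stood for it.

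The mutant mice were 3 Sox9-deficient animals (KO 1 to KO 3), and 3 littermates labelled wild type (WT 1 to WT 3) were the controls. All were C57BL/6 and 3 months old, and each gave total RNA for 1 single-colour array. The labels do not give the Sox9 allele, the promoter of any Cre, the sex of the mice or how litters were shared. In this bulk material fewer cells of a type and less RNA per cell cannot be told apart. Values are log2 intensities after the authors' GCRMA, a background correction and normalization; dim probe sets sit near a floor of about 2 on this scale.

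Oxidative phosphorylation makes most of the ATP of cells that burn fuel in mitochondria. Complexes I and II feed electrons from NADH and succinate to ubiquinone, complex III passes them to cytochrome c, complex IV hands them to oxygen, and ATP synthase, complex V, uses the proton gradient built on the way. In the intestine the balance between glycolysis and mitochondrial respiration differs between the stem cells of the crypt base, their Paneth cell neighbours and the enterocytes above them. Sox9 is a transcription factor made at the bottom of the crypt, and Paneth cells do not form without it.

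Promoters of many of these genes are known to hold sites for NRF1, a factor named for respiratory genes, and for GABPA, an ETS factor also called NRF-2. RefSeq promoter windows of 250 bases before to 50 after the gene start (GRCm38.p6) were at hand for 66 of the 81 genes, in 71 windows. The NRF1 consensus was searched on either strand. Its letters are the capitals in the Ndufa5 sequence, with any base allowed after the A. It stood in 22.5% of these windows and in 4.6% of all 32851 windows of the table. The letters CCGGAAG (ETS, on either strand) stood in 23.9%, against 8.86% of all windows, and 40.8% held at least 1 of the motifs, against 12.6%. On either strand, the YY1 consensus stood in 4.23% of the windows, against 0.986% of all, and TATAAA in 12.7%, against 13.6%. The NRF1 and ETS letters do not overlap each other in the sequences printed here. A match of letters is a description and not a measured site.

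The 250 bases before a RefSeq start are shown for the gene of smallest p in each complex that held such letters wholly within these bases. Where several windows of a gene held them, the first listed is shown. Capitals mark NRF1 and ETS letters, and each sequence runs 5′ to 3′ on the strand of the gene. The window shown for Ndufa5 is chr6:24527527-24527776, minus strand. Another Ndufa5 window, from a different start, held NRF1 letters from base -26, against -190 in the window shown. The Ndufa5 bases shown may thus be transcribed from that other start. The window of Sdhd is chr9:50603850-50604099, minus strand. That of Uqcr11 is chr10:80406822-80407071, minus strand. That of Cox6a1 is chr5:115348959-115349208, minus strand. That of Atp5g2 is chr15:102671048-102671297, minus strand.
Ndufa5: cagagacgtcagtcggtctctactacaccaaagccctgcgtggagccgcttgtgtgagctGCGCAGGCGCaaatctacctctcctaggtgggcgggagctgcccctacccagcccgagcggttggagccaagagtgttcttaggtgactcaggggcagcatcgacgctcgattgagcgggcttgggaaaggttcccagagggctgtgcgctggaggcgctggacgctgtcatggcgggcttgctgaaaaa
Sdhd: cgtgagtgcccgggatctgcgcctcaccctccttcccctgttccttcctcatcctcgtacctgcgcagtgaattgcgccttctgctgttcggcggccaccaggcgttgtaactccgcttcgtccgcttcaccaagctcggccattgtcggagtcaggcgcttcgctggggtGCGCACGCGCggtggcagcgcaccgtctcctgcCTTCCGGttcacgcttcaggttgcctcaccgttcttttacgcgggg
Uqcr11: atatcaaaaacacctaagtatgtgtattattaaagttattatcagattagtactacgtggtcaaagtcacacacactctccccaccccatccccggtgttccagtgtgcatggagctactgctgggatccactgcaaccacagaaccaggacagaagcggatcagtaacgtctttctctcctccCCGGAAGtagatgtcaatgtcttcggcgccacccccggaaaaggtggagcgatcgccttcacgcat
Cox6a1: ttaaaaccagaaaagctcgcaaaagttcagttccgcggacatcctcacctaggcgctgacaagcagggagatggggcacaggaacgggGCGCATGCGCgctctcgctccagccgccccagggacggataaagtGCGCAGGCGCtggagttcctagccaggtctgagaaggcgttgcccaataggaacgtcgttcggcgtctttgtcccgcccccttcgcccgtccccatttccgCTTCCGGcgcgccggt
Atp5g2: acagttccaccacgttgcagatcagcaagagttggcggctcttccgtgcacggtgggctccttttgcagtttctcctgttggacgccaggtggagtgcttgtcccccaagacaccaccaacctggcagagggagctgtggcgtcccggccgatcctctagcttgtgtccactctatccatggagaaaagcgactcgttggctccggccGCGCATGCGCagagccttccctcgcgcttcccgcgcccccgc
Cox6a1 held 2 NRF1 matches and 1 ETS match here, and Sdhd 1 of each. Ndufa5 and Atp5g2 held 1 NRF1 match each in the bases shown, and Uqcr11 held 1 ETS match.

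The arrays as a whole were checked on a few points. One Sox9 probe set read 2.44, 2.75 and 2.42 on KO 1 to KO 3, against 7.61, 5.96 and 5.84 on WT 1 to WT 3. Another read 5.33, 6.34 and 5.76 in KO, against 6.23, 5.38 and 2.68 in WT, and the remaining one was below the filter; the labels do not say where each lies relative to the deletion. All 10 epithelial markers, Epcam, Cdh1 and Vil1 among them, and all 9 measured stem and Paneth cell markers were above the filter described below. The stem and Paneth markers summed, on the log2 scale, to 16.8 to 17.2 in KO and 17.4 to 17.7 in WT crypts, and single markers went both ways. Mmp7, Lyz1 and Itln1 lay lower in every KO mouse than in any WT mouse, and Ascl2, Axin2 and Mcm2 higher. These were 3 of 9 each way, against 4.03% of all probe sets below and 5.09% above, and the rest overlapped. The median difference of the 9 was 0.08, with 5 above 0. Villus enterocyte markers summed to 18.1 to 18.4 in KO and 17.8 to 18.3 in WT, and leukocyte markers to 13.5 to 14.7 in KO and 14.0 to 14.6 in WT. Of 10 tested leukocyte markers 9 had a difference above 0, with a median of 1.11, and WT 1 was low in most of them; their part in the results below was not tested. All 8 smooth muscle markers, 10 of 11 fibroblast and endothelial markers and 4 of 5 fat and blood markers were below the filter. The Gapdh control read 3′ over 5′ by 0.91, 0.58 and 0.37 on KO 1 to KO 3, against 0.61, 0.65 and 1.75 on WT 1 to WT 3, a usual sign of RNA quality, and the beta-actin control was likewise highest on WT 3 (2.65, against 1.22 to 1.71 on the other arrays).

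The question for these genes is whether loss of Sox9 shifts the respiratory chain or ATP synthase in crypt epithelium. No subunit gene passed the test in either direction. Of the 81 genes, 74 averaged 4 or more across all arrays and were tested with limma among 18108 probe sets. Of these, 0 passed a Benjamini-Hochberg adjusted p of 0.05 in limma (smallest adjusted p = 0.999), where 0.011% of all tested probe sets passed it as lower in KO and 0% as higher. At an unadjusted p under 0.05 the count was also 0 of 74, against 3.62% of all probe sets, 1.81% in each direction. The Sox9 probe set that was lower in every KO mouse differed by -3.93 and missed the adjusted threshold too (limma adjusted p = 0.188). That probe set had an SE of 0.48, against a median SE of 0.19 for the subunit genes, so its miss does not carry over to them. A count of 0 still does not show equal levels.

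The differences were small. Their median was 0.04 on the log2 scale (KO minus WT), beside 0.03 over all tested probe sets, and the middle of the distribution, from its lower to its upper quartile, ran from -0.03 to 0.12, beside -0.16 to 0.21. The 95% interval of the difference lay within a 1.5-fold change either way for 41 of 74 genes (55.4%, against 18.3% of all probe sets) and within a 2-fold change for 71 of 74 (95.9%, against 65.2%). The 3 genes whose interval reached past 2-fold were Cox6b2, Cox7a1 and Cox7c, all of complex IV. Subunit genes are mostly bright, with a median level of 13.5. Among the 1290 tested probe sets averaging 12 or more, 39.6% had an interval within 1.5-fold and 87.7% within 2-fold. With 3 mice a group, the smallest two-sided p an exact permutation test allows is 0.1.

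**Figure D1:**
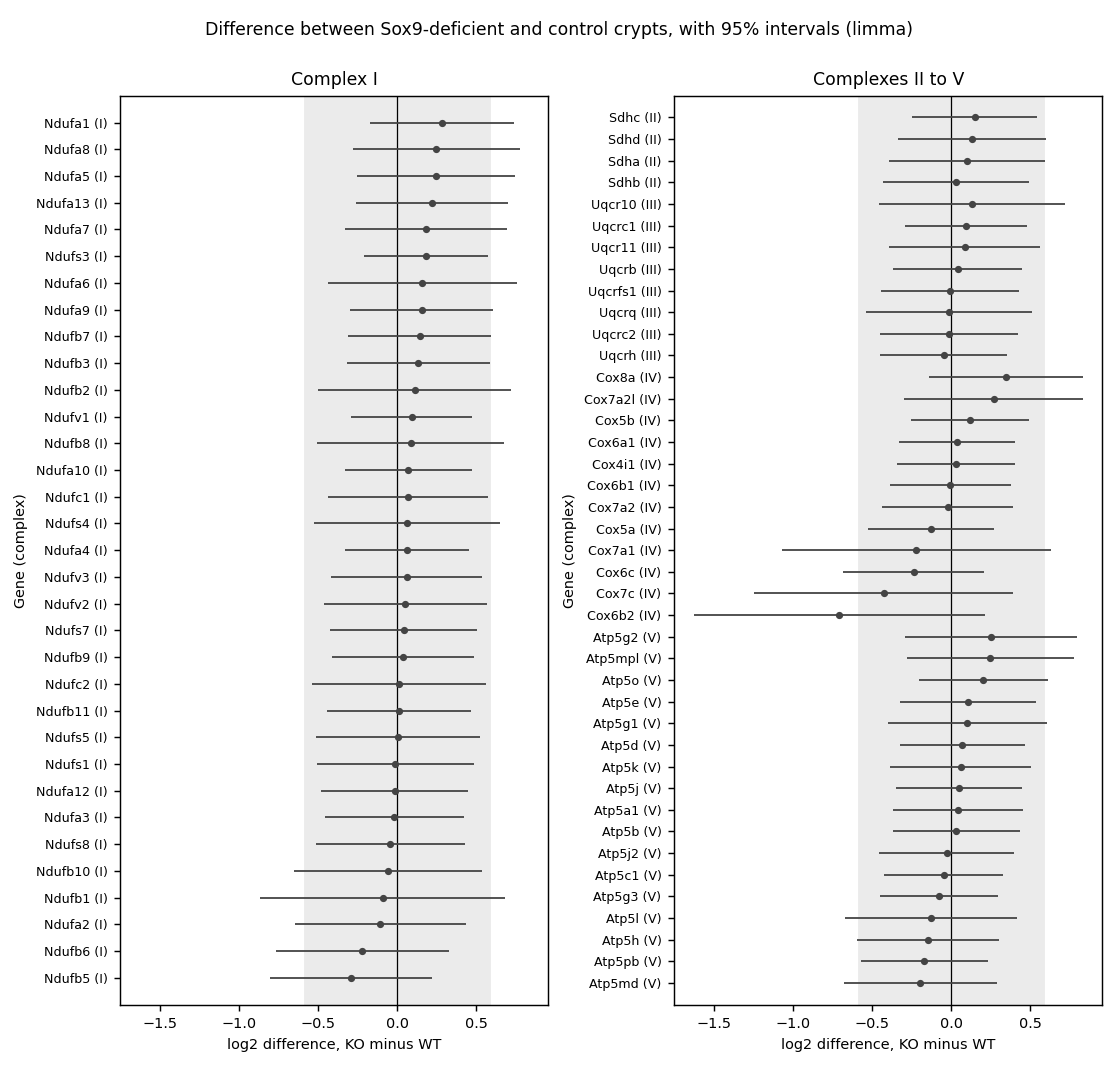
Differences in log2 intensity (KO minus WT, horizontal axis) of the 74 tested subunit genes with their 95% limma intervals (bars), ordered by size within each complex; grey marks a 1.5-fold change either way. All 74 intervals cross 0, and only Cox6b2, Cox7a1 and Cox7c reach past 2-fold.

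**Figure D2:**
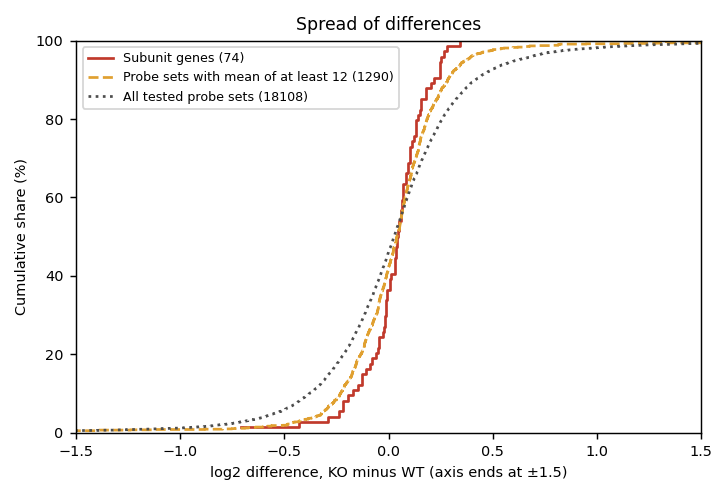
Cumulative share (vertical axis, percent) of log2 differences, KO minus WT, for the 74 subunit genes, for the 1290 tested probe sets averaging 12 or more and for all 18108 tested probe sets. The subunit genes have the steepest curve, around a median of 0.04.

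In complex I, 24 of 33 tested genes had a difference above 0, and the median was 0.06. Over all complexes 47 of 74 genes (63.5%) lay above 0, against 53.9% of all probe sets and 58.3% of those averaging 12 or more. The core subunits, among them those that carry the flavin and the iron-sulphur clusters, stayed close together between the genotypes. Ndufv1, whose product binds NADH, read 13.23, 13.23 and 13.09 on KO 1 to KO 3, against 13.15, 13.02 and 13.11 on WT 1 to WT 3, a difference of 0.09 ± 0.16 (SE; 95% interval -0.29 to 0.47). Ndufs1, the large iron-sulphur subunit, read 11.58, 12.19 and 11.86 in KO, against 11.83, 11.98 and 11.86 in WT, a difference of -0.01. KO 1 was the lowest and KO 2 the highest array there, so the mutants spanned the controls. Over the 6 core genes measured the median difference was 0.05 and all 6 intervals lay within 1.5-fold. The largest difference among them was 0.18, for Ndufs3, whose groups did not overlap.

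The accessory subunits of complex I gave its largest differences. Ndufa1, a small subunit of the membrane arm, read 14.19, 13.76 and 13.84 on KO 1 to KO 3, against 13.68, 13.74 and 13.53 on WT 1 to WT 3. The KO arrays all exceeded the WT arrays, KO 2 barely so, and the difference of 0.28 ± 0.19 (SE) missed the test (limma adjusted p = 0.999). It became 0.15 without KO 1. Ndufa5, of the matrix arm, differed by 0.25 (KO 13.5 ± 0.26, WT 13.2 ± 0.19, SD, n = 3 each), with its other probe set at 0.26, and by 0.14 without WT 3. At the other end, Ndufb5 of the distal membrane arm differed by -0.29 (KO 14.5 ± 0.22, WT 14.8 ± 0.26, SD, n = 3 each), or -0.15 without WT 2, while its other probe set gave 0.15. The 17 accessory genes outside the Ndufb family had a median of 0.07, with 14 above 0, and the 10 tested Ndufb genes had a median of 0.02, with 6 above 0. Ndufb1 was the most variable of them, from 6.19 on WT 3 to 7.12 on WT 1. Ndufb4 had a probe set of its own only at the floor (2.05 to 2.07 on all arrays). Ndufa4, now placed in complex IV, differed by 0.06, and its paralogue Ndufa4l2 was at the floor, between 2.06 and 2.11 on 5 arrays and 2.58 on WT 3.

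All 4 subunits of complex II, the enzyme that oxidises succinate in the citric acid cycle, had a difference above 0, with a median of 0.12, and none passed. Sdhc, a membrane anchor, read 13.35, 13.31 and 13.35 on KO 1 to KO 3, against 13.19, 13.33 and 13.04 on WT 1 to WT 3, a difference of 0.15 ± 0.17 (SE). Its groups overlapped through WT 2. Sdhd, the other anchor, differed by 0.13, Sdha, the flavoprotein, by 0.10 and Sdhb, the iron-sulphur subunit, by 0.03. Sdhb read 14.26, 14.13 and 14.09 in KO, against 14.22, 14.31 and 13.85 in WT, so that WT 3 alone lay below the mutants. The sign of the Sdha, Sdhb and Sdhd values rested on single mice, and Sdhc was 0.08 without WT 3. Sdha was -0.03 without WT 1, Sdhd was -0.0066 without WT 3, and Sdhb was -0.11 without WT 3 and -0.02 without KO 1.

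Complex III was even. Its 8 genes had a median difference of 0.02 (-0.02 with quantile normalization or median centring), with 4 above 0, and 7 of 8 intervals lay within 1.5-fold. Uqcrfs1, the Rieske protein that takes electrons from ubiquinol, read 13.44, 13.50 and 13.50 on KO 1 to KO 3, against 13.55, 13.67 and 13.24 on WT 1 to WT 3. The KO mice lay inside the range of the controls, with a difference of -0.01 (95% interval -0.45 to 0.43). The core protein gene Uqcrc1 differed by 0.09, and the small subunit genes Uqcr10 and Uqcr11 by 0.13 and 0.09. Both of these turned, to -0.05 and -0.01 without KO 1 and to -0.04 each without WT 3. Uqcrh, the hinge protein gene, had the lowest value, -0.05.

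Complex IV held the widest range, from -0.71 to 0.34, around a median of -0.01 (0.01 with the mean of the probe sets of a gene) over 12 tested genes, 5 of them above 0. The common subunits Cox4i1, Cox6a1 and Cox6b1, which surround the catalytic core encoded by mitochondrial DNA, were nearly level. Cox4i1 read 15.31, 15.35 and 15.40 on KO 1 to KO 3, against 15.39, 15.31 and 15.27 on WT 1 to WT 3, a difference of 0.03. Cox6a1 differed by 0.04, Cox6b1 by -0.01, Cox7a2 by -0.02 and Cox5a by -0.13 (-0.04 without WT 2).

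Cox8a and Cox7a2l stood highest in KO within complex IV. Cox8a, the common isoform of the smallest subunit, read 12.66, 12.08 and 12.30 on KO 1 to KO 3, against 12.06, 12.01 and 11.94 on WT 1 to WT 3. All KO arrays lay above all WT arrays, KO 2 only just, and the difference was 0.34 ± 0.20 (SE; 1.27-fold, 95% interval -0.14 to 0.83; limma adjusted p = 0.999, unadjusted p = 0.137). It became 0.19 without KO 1. Its other bright probe set gave 0.28, again without overlap. Cox7a2l read 13.12, 12.43 and 12.42 in KO, against 12.39, 12.38 and 12.41 in WT. The 3 WT mice lay within 0.03 of each other and KO 1 far above the rest, and the difference of 0.27 became 0.04 without KO 1. All 3 of its probe sets, at 0.27, 0.38 and 0.39, had every KO array above every WT array.

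The isoforms of complex IV known for other tissues were mostly at the floor. Cox4i2 of lung, Cox6a2 and Cox8b of heart and skeletal muscle, and Cox7b2 and Cox8c of testis had means of 2.22 to 2.34, and their arrays spanned at most 0.09 for any gene. Cox7a1, the heart and muscle isoform of subunit 7a, was above the filter on every array. It read 11.66, 11.55 and 11.57 on KO 1 to KO 3, against 12.12, 12.33 and 11.00 on WT 1 to WT 3. The mutants lay close together between WT 3 and the other controls, and the difference of -0.22 ± 0.36 (SE) became -0.63 without WT 3 (unadjusted p = 0.0201 in limma, adjusted p = 0.9997). All 8 smooth muscle markers were at or near the floor, with a summed log2 level of 5.61 to 5.65 in KO and 5.64 to 5.65 in WT. Cox6b2, the testis isoform of subunit 6b, read 4.51, 4.39 and 4.46 in KO, against 4.44, 5.05 and 6.00 in WT. Its difference of -0.71, the largest of any subunit gene, rested on WT 2 and WT 3, since WT 1 lay among the mutants (-1.07 without WT 1, -0.29 without WT 3). All KO arrays and WT 1 lay little above the filter of 4, and whether these dim values stand above background was not tested. Cox7c was 6.32 on KO 1 and 7.38 to 7.61 on the other 5 arrays, a difference of -0.43. Both its probe sets were lowest on KO 1.

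In complex V the median was 0.05 over 17 genes, with 10 above 0. The catalytic head was nearly level. Atp5b, the catalytic beta subunit, read 15.03, 15.30 and 15.29 on KO 1 to KO 3, against 15.17, 15.17 and 15.19 on WT 1 to WT 3, a difference of 0.03. Atp5a1, the alpha subunit, read 14.39, 14.69 and 14.69 in KO, against 14.57, 14.53 and 14.52 in WT, a difference of 0.05. In both genes KO 1 lay below all controls while KO 2 and KO 3 lay above them, so the mutants disagreed in direction. All 5 genes of the F1 head had intervals within 1.5-fold.

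The c ring, which turns as protons pass, is encoded by 3 genes that give the same mature protein. Atp5g2 differed by 0.25 (KO 13.82, 13.17 and 13.26, WT 13.31, 13.10 and 13.08, where WT 1 lay above KO 2 and KO 3), which became 0.05 without KO 1, Atp5g1 by 0.10 and Atp5g3 by -0.08. The small membrane subunit gene Atp5mpl differed by 0.25, which became 0.05 without WT 3, and Atp5md by -0.20, which became -0.35 without WT 3. Atp5o, which encodes the stalk protein that confers oligomycin sensitivity, read 14.50, 14.31 and 14.32 on KO 1 to KO 3, against 14.23, 14.27 and 14.02 on WT 1 to WT 3. Its groups did not overlap (difference 0.20 ± 0.17, SE; 0.13 without WT 3), but its other probe set gave -0.16 with overlap.

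Groups that did not overlap were no more than a handful. KO arrays lay wholly above WT arrays in 6 of 74 genes (8.11%, against 5.09% of all probe sets and 9.07% of those averaging 12 or more). They lay wholly below in 2 (2.70%, against 4.03% of both). In all this was 10.8%, against 9.12% of all probe sets and 13.1% of the bright ones, so the share was near the background. The 6 were Ndufa1, Ndufs3, Cox5b, Cox7a2l, Cox8a and Atp5o, and the 2 were Cox6c and Atp5pb; Ndufs3, Cox5b and Atp5pb were named after their values were seen. Ndufs3, a core subunit of the matrix arm, differed by 0.18, and Cox5b by 0.12, with 3 of its 5 tested probe sets free of overlap. Cox6c and Atp5pb differed by -0.24 (-0.11 without WT 2) and -0.17, but the other probe set of each gave 0.01 and 0.03. With each array centred on its median, 1 gene lay above and 1 below, against 3.47% and 5.19% of all probe sets. Of the 44 genes with at least 2 tested probe sets, 16 had probe sets of opposite sign, and in none did they part by 0.5 on both sides of 0.

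**Figure D3:**
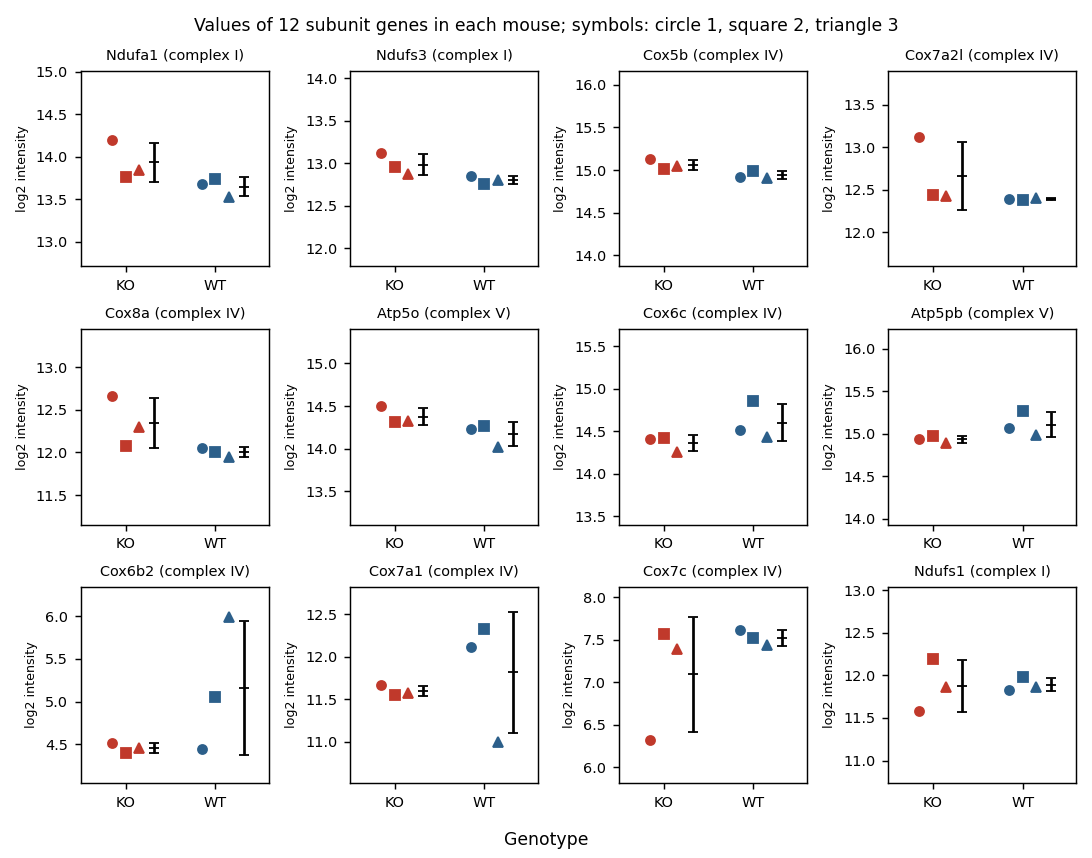
Log2 intensity (vertical axis, same span in each panel) of 12 subunit genes, chosen after their values were seen, in each KO mouse (red) and WT mouse (blue), with mean and SD at the right of each group (n = 3). The first 8 panels are the genes whose groups did not overlap; in Cox7a2l the KO mean is carried by KO 1, and in Cox6b2 and Cox7a1 the WT mice lie far apart.

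The arrays kept an order that cut across the genotypes. KO 1 was the highest array in 37 of 74 genes, against 24.9% of all probe sets and 37.3% of those averaging 12 or more. WT 3 was the lowest in 47 (63.5%, against 18.4% and 24%). The median range over the 6 arrays was 0.51 for a subunit gene and 0.887 for all probe sets. In complex I, KO 1 was highest in 22 and WT 3 lowest in 22 of 33 genes. There, after centring each gene, the array medians were 0.28 for KO 1, -0.03 for KO 2 and -0.11 for KO 3, against 0.07, 0.06 and -0.23 for the controls in order. KO 2 and KO 3 thus lay below WT 1 and WT 2. The complex I median of 0.06 was -0.05 without KO 1 and -0.03 without WT 3. Complex IV followed this order only in part, with KO 1 highest in 3 and WT 3 lowest in 6 of 12 genes. Its array medians were -0.02, -0.05 and -0.06 in KO, against -0.02, 0.14 and -0.06 in WT.

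WT 3 was also the array with the highest 3′ over 5′ reading of Gapdh and beta-actin, and KO 1 came next on both (0.91 and 1.71). The part of RNA quality in the order of the mice was not tested. KO 1 was lowest in 5 genes (against 27.4% of all probe sets), Ndufs1, Cox7c, Atp5a1, Atp5b and Atp5g3. Without WT 3 the median over all subunit genes was -0.03, with 30 of 74 above 0 and 16 genes wholly below and 7 wholly above the controls (8.6% and 9.82% of all probe sets); without KO 1 it was -0.03, with 30 above 0. With the arrays centred on their medians KO 1 was highest in 42 and WT 3 lowest in 35 genes, against 29.4% and 15.6% of all probe sets.

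**Figure D4:**
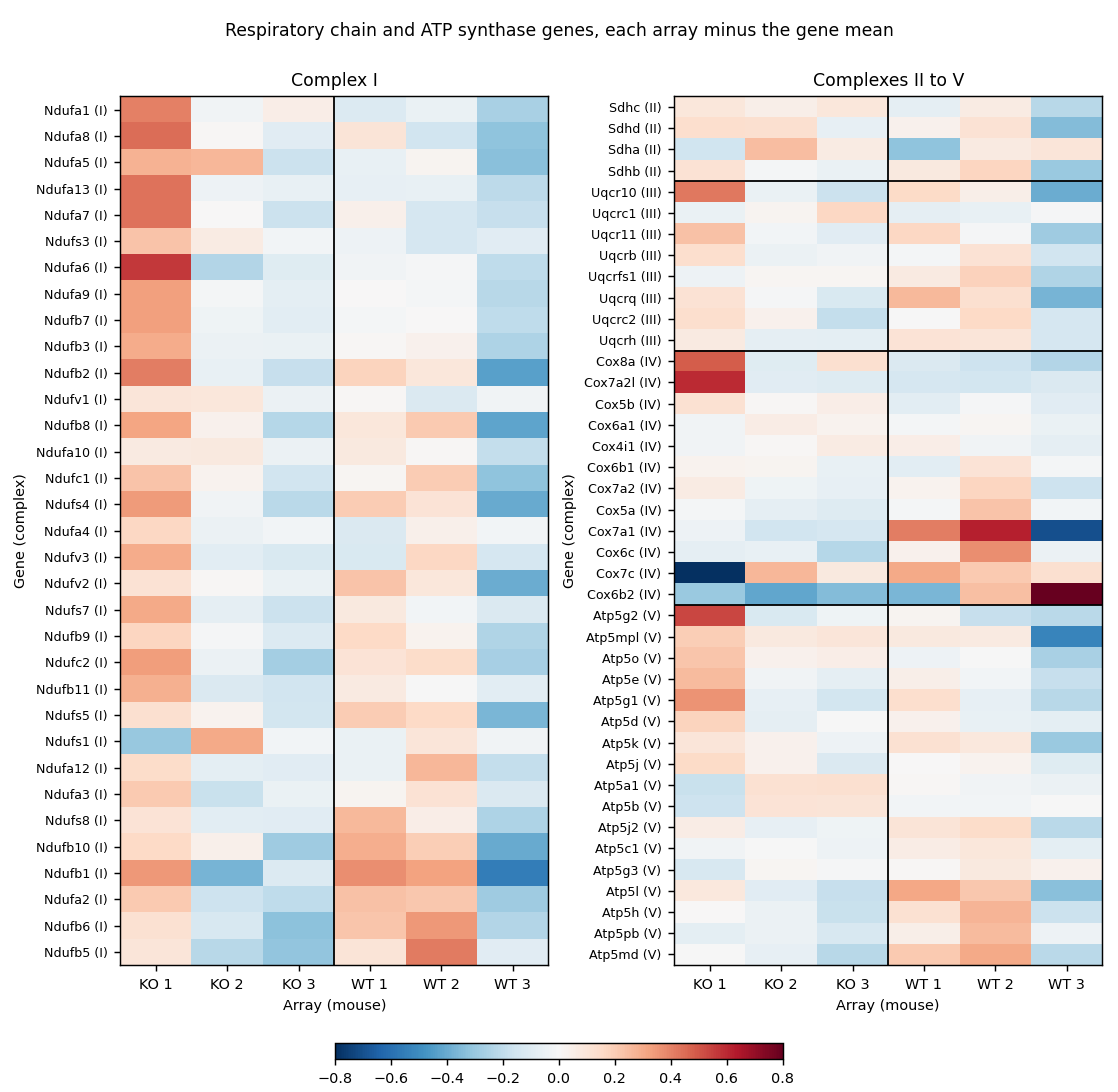
Heat map of the 74 tested subunit genes (rows, ordered by KO minus WT within each complex) on the 6 arrays (columns, KO left of the line), as log2 intensity minus the mean of the gene. KO 1 is mostly red and WT 3 mostly blue, while KO 2, KO 3, WT 1 and WT 2 lie between.

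Other mitochondrial genes gave 0 calls in limma over all probe sets as well. Of 42 tested assembly factor genes, whose products build the complexes without staying in them, 23 had a difference above 0 (median 0.05), and 0 had an unadjusted p under 0.05. Acad9, a complex I assembly factor, differed by 0.49 and Nubpl, which helps place iron-sulphur clusters there, by 0.49. The 76 mitochondrial ribosomal protein genes had a median of 0.11 with 60 above 0, and 0 passed an unadjusted p of 0.05. KO 1 was highest and WT 3 lowest there too, with medians of 0.42, -0.08 and -0.18 on KO 1 to KO 3, against 0.21, -0.11 and -0.32 on WT 1 to WT 3. The 11 measured genes of electron carriers and other subunits, such as Cycs and Cyc1, had a median of 0.02.

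Of 16 citric acid cycle and pyruvate dehydrogenase genes 11 were above 0, with a median of 0.05. In 4 of the 16 all KO arrays lay above all WT arrays, and in 0 below. The shares of all probe sets were 5.09% and 4.03%, and 9.07% and 4.03% of those averaging 12 or more. Idh2, the mitochondrial NADP-dependent isocitrate dehydrogenase, read 10.26, 9.90 and 9.97 on KO 1 to KO 3, against 9.56, 9.48 and 9.66 on WT 1 to WT 3. Its groups did not overlap, and the difference of 0.48 ± 0.18 (SE) missed the test (limma adjusted p = 0.999, unadjusted p = 0.0331). Idh3g, a subunit of the NAD-dependent enzyme, differed by 0.30. Of 14 glycolytic genes 6 were above 0, with a median of -0.07. Pfkl, the liver-type phosphofructokinase, read 9.93, 10.16 and 9.86 in KO, against 9.52, 8.83 and 9.11 in WT, a difference of 0.83 ± 0.23 (SE; limma adjusted p = 0.999, unadjusted p = 0.00925). The glucose transporter gene Slc2a1 differed by -0.50 with overlap. Among 17 import, carrier and chaperone genes 11 were above 0 (median 0.07), with Phb2 at 0.35 and Slc25a4 at -0.35.

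Regulators of mitochondrial biogenesis had a median of -0.03 over 15 genes, 6 of them above 0. Gabpa, which encodes the DNA-binding part of NRF-2, read 8.97, 9.37 and 9.43 on KO 1 to KO 3, against 9.76, 9.61 and 9.61 on WT 1 to WT 3. Its groups did not overlap, and the difference of -0.41 ± 0.19 (SE) missed the test (limma adjusted p = 0.999, unadjusted p = 0.0734). Nrf1 differed by -0.49 with overlap (KO 6.71 ± 0.55, WT 7.20 ± 0.31, SD, n = 3 each), and KO 1 was its lowest array at 6.08. Tested subunit genes whose promoter windows held the ETS letters had a median difference of 0.04 (17 genes), those with NRF1 letters 0.10 (14 genes) and those with neither 0.06 (36 genes).

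**Figure D5:**
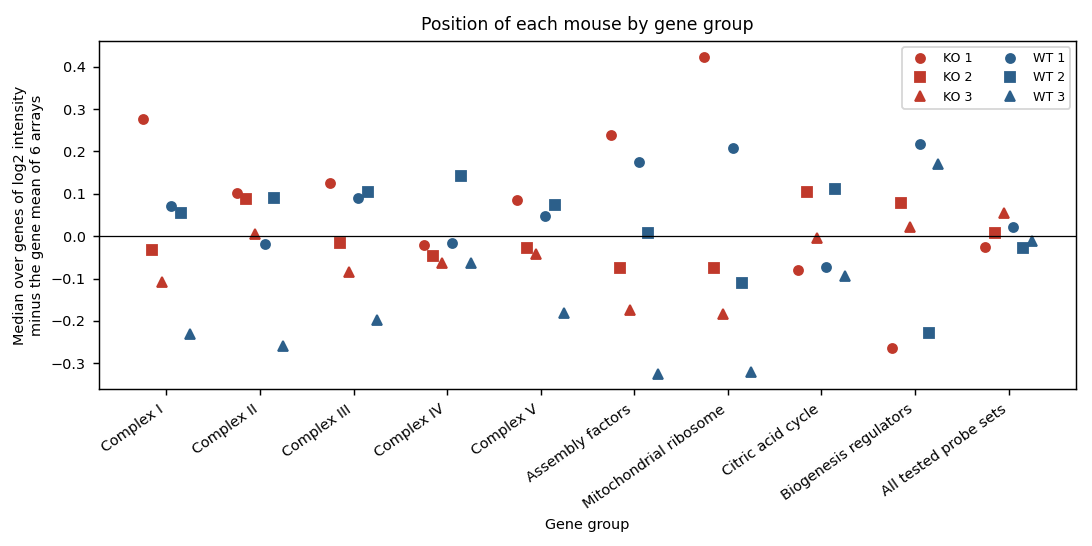
Median over genes of log2 intensity minus the mean of the gene (vertical axis) for each mouse, by gene group (horizontal axis; KO red, WT blue). KO 1 is highest and WT 3 lowest in complex I, assembly factors and the mitochondrial ribosome, while all tested probe sets lie near 0.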

How the data were processed

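Total RNA from jejunal crypt epithelium of 3 Sox9-deficient and 3 wild type mice was measured on 6 single-colour arrays. The deposited log2 intensities were made by the authors with GCRMA, per the submitters' processing notes, which also name limma but no version. The small number of arrays limits the precision. All 6 columns were used, and the table held 0 columns of other samples.

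Of 45101 probe sets, 64 array controls were left out; 34945 carried 1 gene symbol, 932 several and 9160 none, in an array annotation that can be old. Symbols were compared with RefSeq by gene ID (34754 matched, 0 changed). A probe set with several symbols names no gene, which left out 9 probe sets with a matching symbol among them. The 18108 probe sets averaging 4 or more were fitted with limma 3.58.1 in R 4.3.3 (KO minus WT, lmFit and eBayes, two-sided, Benjamini-Hochberg over all of them; 4 residual and 2.59 prior degrees of freedom), and the fit was tested on simulated data. P-values, SEs and intervals from limma rest on the spread between these mice and on a prior variance estimated from all tested probe sets. For a steady gene the SE can thus exceed what its own mice show. Cox5b had SDs of 0.06 in KO and 0.04 in WT, but an SE of 0.16.

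The subunit genes, gene lists and tests were chosen with earlier results of these data known. Genes were named where they had the smallest p or largest difference in a complex, encode core subunits or paralogues, or had the smallest p in another list; those outside this rule are marked as chosen after their values were seen, and Cox7c and the promoter comparison are of that kind too. Same-numbered KO and WT arrays did not deviate together (correlations of -0.05, -0.29 and 0.03), so the main fit has no replicate block. Alternatives were the block, other filters, quantile normalization, centring on the array median, another eBayes prior, array weights, 1 probe set per gene, the mean of the probe sets of a gene and each array left out. A further one, with KO 1 and WT 3 both left out, was added after seeing the data.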

Additional observations from a re-analysis of the deposited data

How the results depend on the processing

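Under all 16 alternative fits, 15 planned and 1 added, 0 subunit genes passed an adjusted p of 0.05 in limma, and the smallest adjusted p of a named gene was 0.521. That value came from the added fit, without KO 1 and WT 3 together. It was chosen after seeing the data, and both arrays were picked by the values of the subunit genes themselves, so it is no independent comparison and nothing is read from it. It moved the results most: the median over all subunit genes was -0.12 (complex I -0.15, II 0.01, III -0.14, IV -0.06, V -0.06), and 20 of 74 genes lay above 0. In this fit 10 genes lay wholly above and 39 wholly below the controls (24.1% and 19.6% of all probe sets). At an unadjusted p under 0.05 in limma 4 genes were lower in KO, where 9.22% of all probe sets passed in either direction. There Atp5g1 was -0.14, Ndufs1 0.12, Sdhb -0.16, Sdhd -0.042, Uqcr10 -0.21 and Uqcr11 -0.13, each of opposite sign to the reported value.

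With the replicate block, whose numbers pair no samples in the labels, 0 subunit genes passed (smallest adjusted p = 0.999) and the median over them was 0.04. At an unadjusted p under 0.05 the count became 1 with no filter on low values (Cox5b, higher in KO), 1 without WT 1 (Cox6b2, lower) and 1 without WT 3 (Cox7a1, lower). Genes wholly above the controls numbered 1 with median centring (3.47% of all probe sets), against 6 as reported. Those wholly below numbered 0 with the mean of the probe sets of a gene, 1 with median centring and 1 with quantile normalization, against 2. The shares of all probe sets wholly below were 3.39%, 5.19% and 4.95% in these fits. With single arrays left out there were 7 to 11 above and 2 to 16 below, beside 8.1% to 14.1% and 6.48% to 10% of all probe sets. At an unadjusted p under 0.05 in limma 0 to 1 genes were lower, beside 2.83% to 5.47% of all probe sets in either direction. The median over all subunit genes then ran from -0.03 to 0.09, and by complex from -0.05 to 0.14 (I), 0.04 to 0.19 (II), -0.06 to 0.08 (III), -0.06 to 0.04 (IV) and -0.02 to 0.06 (V). It was -0.01 with array weights. Complex III was -0.02 under quantile normalization and under median centring, and complex IV 0.01 with the mean of the probe sets of a gene.

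Several named genes turned in sign. With array weights Atp5g1 was -0.038, Ndufs1 0.14, Sdhb -0.011, Uqcr10 -0.025, Uqcr11 -0.0081 and Uqcrfs1 0.0069. Cox6b1 was 0.092 with the mean of its probe sets. Atp5b was -0.0026 and -0.014, and Cox4i1 -0.0032 and -0.0017, with median centring and quantile normalization, and Sdhb was -0.0045 with median centring. With single arrays left out Atp5a1 ran from -0.0066 to 0.15, Atp5b ran from -0.014 to 0.12, Atp5g1 ran from -0.054 to 0.20, Cox6b1 ran from -0.049 to 0.047 and Cox7a1 ran from -0.63 to 0.037. In the same fits Cox7a2 ran from -0.11 to 0.058, Ndufa4 ran from -0.0039 to 0.10, Ndufs1 ran from -0.17 to 0.14, Sdha ran from -0.033 to 0.20 and Sdhb ran from -0.11 to 0.12. Likewise Sdhd ran from -0.0066 to 0.22, Uqcr10 ran from -0.049 to 0.25, Uqcr11 ran from -0.036 to 0.19 and Uqcrfs1 ran from -0.13 to 0.082. The cause of these turns was not tested. The 7 genes at the floor allow no difference to be read.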
